A study of Mus musculus with 2 samples.

Results

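Mitochondrial ribosomal protein genes were examined for peaks of H3K9bhb, histone H3 carrying a β-hydroxybutyryl group on lysine 9. The members are all protein-coding genes of the mm10 RefSeq table whose symbol starts with Mrpl or Mrps and a digit, which gave 78 of 21900 genes, 49 named for the large subunit (Mrpl) and 29 for the small subunit (Mrps). Large and small subunit below mean the symbol only. Whether each protein sits in the subunit of its name, or in the ribosome at all, was not checked. A gene has a peak, in what follows, if the list holds a summit within its span or at most 5 kb outside it. The profiled cells were CD8+ memory T cells made from spleen cells of OT-I mice on the C57BL/6 strain, whose T cells carry a transgenic receptor for an ovalbumin peptide. They had 3 days of the peptide (200 ng/ml) with IL-2 (10 ng/ml), then 4 days of IL-15 (10 ng/ml), and were treated with β-hydroxybutyrate (BHB) for 3 days. There was 1 ChIP library, made with 4 µg of an H3K9bhb antibody, and 1 input library from the same kind of cells. The ChIP peak list is the only table used, and no untreated culture was analysed here, so a peak says where the mark was called after BHB and nothing about a change under BHB.

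Mitochondria build the core subunits of their respiratory chain on ribosomes of their own. The ribosomal RNA of these particles is encoded by mitochondrial DNA, but every one of their proteins is encoded in the nucleus, made in the cytosol and imported. The large subunit forms peptide bonds and holds the exit tunnel, and the small subunit decodes the messenger RNA. Activated and memory T cells depend on mitochondrial translation to maintain respiration.

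The list held 2315 summits of 2204 peaks, with scores (the authors' −log10 p or q at the summit) from 2.01 to 1167.46 and a median of 5.04. Depth behind a single peak is unknown. Listed marker genes could not be used to check the cell type: 0 of 10 CD8 T cell markers had a peak (exact upper limit 30.8%), as did 0 of 5 B cell and 0 of 5 myeloid markers (52.2% each).

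Few mitochondrial ribosomal protein genes had an H3K9bhb peak, in a share near that of protein-coding genes in general. Of the 78 members, 7 had a peak (8.97%, exact 95% interval 3.68 to 17.6), against 2489 of 21900 protein-coding genes (11.4%). The large subunit had 4 of 49 (8.16%, interval 2.27 to 19.6), namely Mrpl15, Mrpl22, Mrpl23 and Mrpl33, and the small subunit had 3 of 29 (10.3%, interval 2.19 to 27.4), namely Mrps6, Mrps33 and Mrps35. Each subunit's interval holds the other's share and the 11.4% of all genes. With 1 library there is no replicate and no test, and the intervals cover counting error only. Each of the 7 genes had 1 summit, 6 of the 7 summits lay inside the member, and in the same 6 the member's own end was nearer than that of any other protein-coding gene. The exception was Mrpl22, whose summit was nearer to Gemin5.

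Other ways of calling a peak gave shares from 2.56% to 10.3%, each read against its own background. Within 2 kb of either gene end it was 7 members (8.97%), against 9.40% of all protein-coding genes. Inside or within 1 kb it was 6 (7.69%), against 10.4%, and inside or within 10 kb it was 8 (10.3%), against 13.0%. In the upper 50% of peaks by score it was 5 (6.41%), against 5.77%, and in the upper 25% it was 2 (2.56%), against 3.04%. Within 1 kb of a listed start it was 4 of 69 (5.80%), against 9.18%. Without peaks that scored over 20 it was 7 (8.97%), against 11.3%. Counting a summit only for the annotated gene of any type with the nearest end gave 6 (7.69%), against 8.38%.

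**Figure D1:**
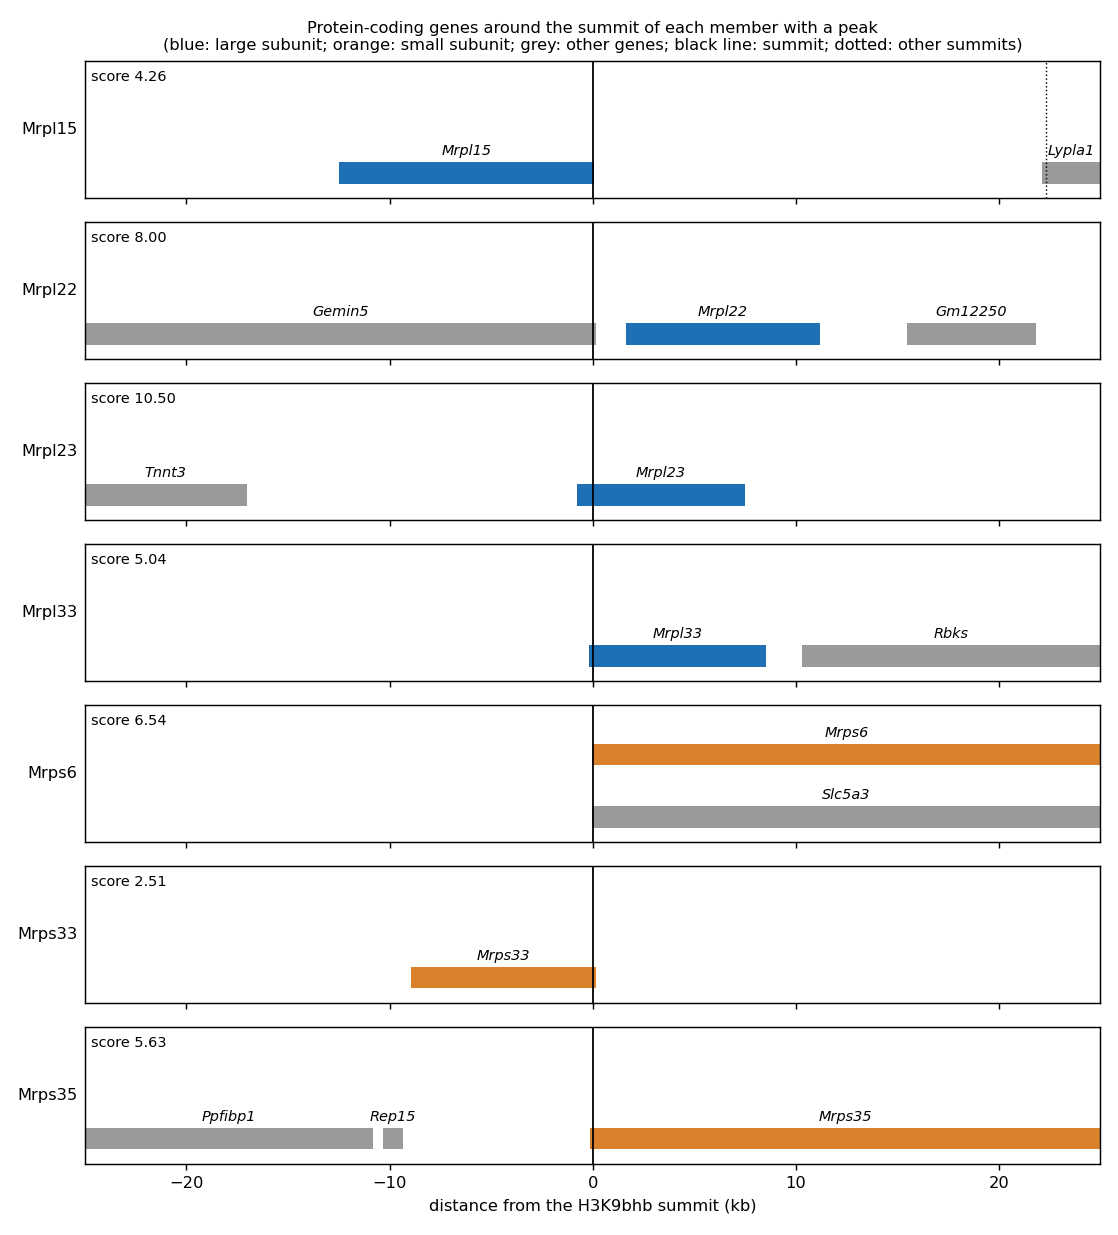
Protein-coding genes within 25 kb of the summit of each of the 7 members with a peak, with distance from the summit in kb on the horizontal axis; bars are gene spans, the solid line is the summit, the dotted line another summit, and the score is printed at the left. The summit sits at an end of the member in 6 panels, at an end shared with Slc5a3 in that of Mrps6, and at an end of Gemin5 in that of Mrpl22.

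In the large subunit, the highest score at a member was at Mrpl23. It encodes a homologue of bacterial protein L23, which sits at the mouth of the exit tunnel. Mrpl23 (chromosome 7, 142532467 to 142540747) had a summit at 142533254 with a score of 10.50, and 6.18% of all summits scored as high or higher. The summit lay 787 bp inside the lower-coordinate end of the gene and 222 bp downstream of its listed transcription start. The nearest end of another protein-coding gene was that of Tnnt3, a skeletal muscle troponin, at 17041 bp, and the nearest end of any annotated gene was that of the long non-coding RNA Nctc1, at 11355 bp.

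Mrpl33 and Mrpl15 had scores near the middle of the list. Mrpl33 encodes a small protein related to bacterial L33, and Mrpl15 a homologue of L15. Mrpl33 (chromosome 5, 31613951 to 31622644) had a summit at 31614132, 181 bp downstream of its listed start, with a score of 5.04 (49.8% of summits as high or higher). The next protein-coding end belonged to Rbks, a ribokinase gene, 10307 bp away. Mrpl15 (chromosome 1, 4773198 to 4785750) had a summit at 4785686, 64 bp inside its higher-coordinate end, with a score of 4.26 (61.6% of summits as high or higher). The nearer end of its neighbour Lypla1, an acyl-protein thioesterase gene, was 22137 bp from this summit and had another summit beside it.

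The Mrpl22 peak belongs by distance to Gemin5. Mrpl22 encodes a homologue of bacterial L22, which lines the exit tunnel, and Gemin5 encodes the RNA-binding subunit of the SMN complex that assembles spliceosomal ribonucleoproteins. Mrpl22 (chromosome 11, 58170043 to 58179580, plus strand) had the second-highest score among members, 7.996 (14.6% of summits as high or higher), but the summit, at 58168391, was 1652 bp outside the gene and 3273 bp upstream of its listed start. The same summit was 163 bp inside Gemin5 (58120001 to 58168554, minus strand) and 122 bp downstream of a listed start of that gene. By nearest protein-coding end, the large subunit had 3 of 49 members with a peak and the small subunit 3 of 29, with Mrps6 counted although Slc5a3 starts beside it, against 9.26% of protein-coding genes counted in that way.

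In the small subunit, Mrps6 had the highest score. It encodes a homologue of bacterial S6. Mrps6 (chromosome 16, 92058336 to 92112227) had a summit at 92058351 with a score of 6.54 (29.5% of summits as high or higher), 15 bp downstream of its listed start. Slc5a3, which encodes a sodium-coupled myo-inositol transporter, starts on the same strand at 92058322, and the summit was 29 bp from that start. The annotated starts of these genes are so close that the peak cannot be assigned to one of them.

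Mrps35 and Mrps33 encode proteins of the small subunit that have no bacterial counterpart. Mrps35 (chromosome 6, 147042728 to 147070906) had a summit at 147042849, 121 bp inside its lower-coordinate end, with a score of 5.63 (39.3% of summits as high or higher). Rep15 had the next protein-coding end, 9331 bp away. Mrps33 (chromosome 6, 39801804 to 39810936) had a summit at 39810760, 176 bp downstream of its listed start, with a score of 2.51. This was the lowest score at a member, and 90.5% of summits scored as high or higher. No other protein-coding gene ended within 60 kb: Tmem178b was the nearest, at 60470 bp.

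Starts were listed in the RefSeq promoter table for 69 of the 78 members, among them 5 of the 7 with a peak (not Mrpl15 and Mrps35). The windows below run from 250 bases before the start to 50 after it, 5′ to 3′ on the gene's strand (GRCm38.p6, the assembly that mm10 denotes). They are shown because these 4 members had a summit within 1 kb of their own start. Capitals mark matches, on either strand, to a set of short motifs: CCGGAAG (ETS factors), GGGCGG (Sp1), CCAAT (NFY), AAGATGGCG (YY1), TATAAA (a core promoter element), TGACGTCA (CRE), CACGTG (E-box) and the NRF1 motif. The windows are those of Mrpl23 (chr7:142532782-142533081, plus strand), Mrpl33 (chr5:31613701-31614000, plus strand), Mrps6 (chr16:92058086-92058385, plus strand) and Mrps33 (chr6:39810887-39811186, minus strand).
Mrpl23: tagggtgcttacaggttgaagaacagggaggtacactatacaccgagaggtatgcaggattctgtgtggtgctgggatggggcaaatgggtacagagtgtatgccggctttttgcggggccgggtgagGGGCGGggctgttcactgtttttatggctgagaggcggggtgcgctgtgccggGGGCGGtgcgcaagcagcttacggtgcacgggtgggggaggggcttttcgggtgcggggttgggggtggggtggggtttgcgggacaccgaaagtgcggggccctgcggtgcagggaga
Mrpl33: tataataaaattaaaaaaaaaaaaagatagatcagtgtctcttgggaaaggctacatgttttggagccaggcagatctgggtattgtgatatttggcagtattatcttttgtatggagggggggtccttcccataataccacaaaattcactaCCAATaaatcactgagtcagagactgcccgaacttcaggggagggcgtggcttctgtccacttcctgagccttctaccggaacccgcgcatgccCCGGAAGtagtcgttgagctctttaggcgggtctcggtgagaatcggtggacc
Mrps6: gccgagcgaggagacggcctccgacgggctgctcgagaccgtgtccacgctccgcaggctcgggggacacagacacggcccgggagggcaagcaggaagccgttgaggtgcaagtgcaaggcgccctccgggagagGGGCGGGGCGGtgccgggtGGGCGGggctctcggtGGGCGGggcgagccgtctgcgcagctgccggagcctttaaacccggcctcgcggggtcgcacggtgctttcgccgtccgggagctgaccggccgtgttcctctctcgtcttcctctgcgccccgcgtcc
Mrps33: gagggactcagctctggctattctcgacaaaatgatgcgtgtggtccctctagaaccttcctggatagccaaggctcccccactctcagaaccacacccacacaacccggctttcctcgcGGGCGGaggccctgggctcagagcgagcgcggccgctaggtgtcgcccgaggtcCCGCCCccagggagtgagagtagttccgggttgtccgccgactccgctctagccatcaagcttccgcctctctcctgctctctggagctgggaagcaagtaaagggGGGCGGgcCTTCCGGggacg

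The 4 windows differ in composition. That of Mrps6 had 73.7% GC and 39 CpG, and it holds 4 GGGCGG matches between 114 and 74 bp upstream of the start, the first pair sharing a base. That of Mrps33 had 64.3% GC and 21 CpG, with 3 GGGCGG matches and CCGGAAG, on the opposite strand, 38 to 44 bp downstream of the start. That of Mrpl23 had 63.3% GC, 18 CpG and 2 GGGCGG matches. That of Mrpl33 had 47.0% GC and 10 CpG, with CCGGAAG lying across the start and CCAAT 97 to 93 bp upstream. In Mrps6 the summit fell within the printed window, and in the other 3 it lay 176 to 222 bp downstream of the start, past the end of the window.

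The windows of Mrpl22 and Gemin5 are shown because the peak counted for Mrpl22 lay just downstream of a start of Gemin5 (Mrpl22, chr11:58171414-58171713, plus strand; Gemin5, chr11:58168464-58168763, minus strand). Mrpl22 had 51.0% GC and 16 CpG with 1 CCGGAAG match, and this Gemin5 window had 59.3% GC and 26 CpG with 2 GGGCGG matches.
Mrpl22: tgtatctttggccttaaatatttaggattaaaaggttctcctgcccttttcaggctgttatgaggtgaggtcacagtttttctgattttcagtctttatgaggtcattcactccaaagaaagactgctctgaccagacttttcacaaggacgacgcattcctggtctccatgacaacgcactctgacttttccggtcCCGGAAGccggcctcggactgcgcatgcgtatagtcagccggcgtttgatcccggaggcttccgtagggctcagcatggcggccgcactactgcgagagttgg
Gemin5: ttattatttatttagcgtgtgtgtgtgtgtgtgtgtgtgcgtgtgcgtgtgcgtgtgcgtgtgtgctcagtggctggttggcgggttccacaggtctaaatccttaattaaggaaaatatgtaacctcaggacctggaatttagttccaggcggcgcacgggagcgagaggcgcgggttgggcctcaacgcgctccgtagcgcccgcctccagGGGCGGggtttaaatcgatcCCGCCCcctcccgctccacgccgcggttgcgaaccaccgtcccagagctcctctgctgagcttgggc

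Where a member had a summit at its own listed start, it lay just downstream, in the stretch that held the most summits of the list. Of the 2315 summits, 1690 (73.0%) were within 5 kb of a listed start of a protein-coding gene. Of those, 1069 (63.3%) fell 0 to 500 bp downstream, with a median of 124 bp downstream and quartiles of 14 bp upstream and 265 bp downstream. The 4 member summits at own starts, 15 to 222 bp downstream, are inside that stretch. The 4 of 69 members with a summit within 1 kb of a listed start (5.80%, interval 1.6 to 14.2) stand against 1606 of 17492 protein-coding genes (9.18%). At the other end of the gene, 0 of 69 members had a summit within 1 kb (interval up to 5.21%), against 88 of 17492 protein-coding genes (0.503%). By subunit, starts had a summit in 2 of 43 large-subunit genes (4.65%, 0.568 to 15.8) and 2 of 26 small-subunit genes (7.69%, 0.946 to 25.1).

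**Figure D2:**
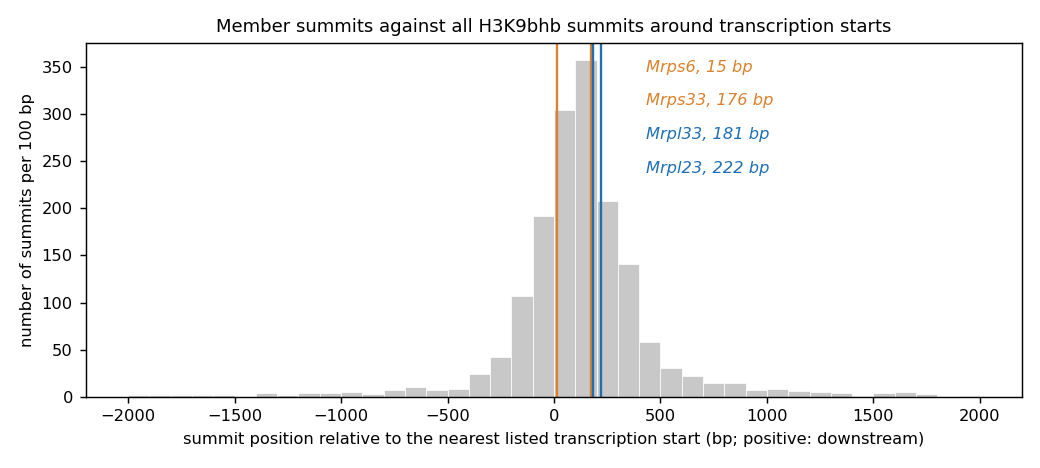
Number of summits per 100 bp (grey bars) against distance in bp from the nearest listed start of a protein-coding gene, within 2 kb, positive values being downstream. Coloured lines mark the summits of the 4 members with a summit at their own start (Mrps6 at 15 bp, Mrps33 at 176 bp, Mrpl33 at 181 bp and Mrpl23 at 222 bp), which fall in the tallest part of the distribution.

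Most of the 71 members without a peak were far from any summit. Their median distance to the nearest summit was 183 kb, less than the 289 kb of all protein-coding genes without a peak. The median distance to the nearest summit was 150 kb over all 78 members, against 222 kb over all protein-coding genes, and 47 members were over 100 kb away. Over the 86 genes of cytosolic ribosomal proteins the median was 128 kb. Large-subunit genes had a median of 135 kb and small-subunit genes one of 183 kb, with quartiles of 39.3 and 373 kb and of 68.0 and 400 kb. The farthest was Mrpl17, at 1399 kb. No member lay between the 1652 bp of Mrpl22 and the 9930 bp of Mrpl28, so the choice of 5 kb does not divide closely spaced genes.

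**Figure D3:**
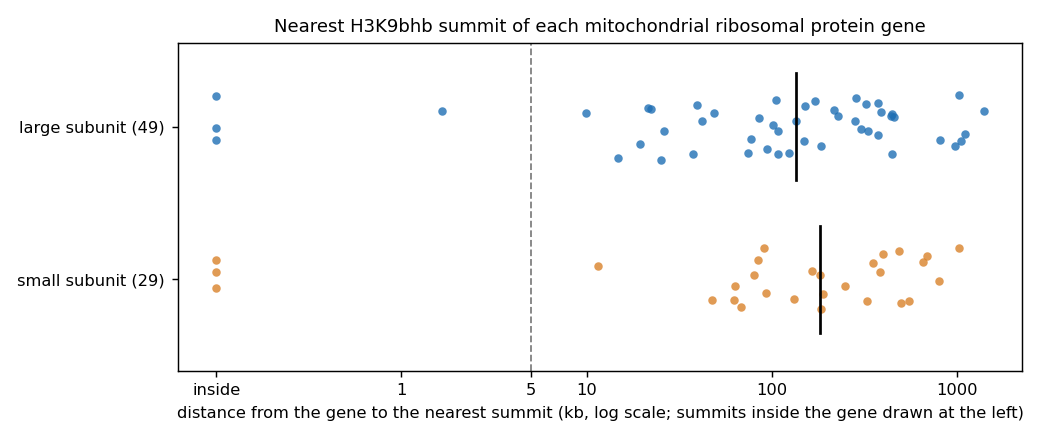
Distance from each member to the nearest summit in kb on a log scale, 1 point a gene, for 49 large-subunit and 29 small-subunit genes. Summits inside the gene are drawn at the left, the dashed line is 5 kb and black bars are medians (135 and 183 kb), with 4 large-subunit and 3 small-subunit genes left of the line.

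There were 4 members 5 to 20 kb from a summit, and each of those summits was nearer to an end of another gene. Mrpl28, a large-subunit gene on chromosome 17, was 9930 bp from a summit (score 7.95) that lay 821 bp from an end of Pgap6 and 257 bp downstream of a listed start of it. Mrps14, whose product is related to bacterial S14, was 11561 bp from a summit (8.67) that lay 145 bp downstream of the start of Cacybp, the calcyclin-binding protein gene. Mrpl39 was 14851 bp from a summit (11.82) and had the nearest protein-coding end, but an end of Mir155hg, the host transcript of the immune-cell microRNA miR-155, was nearer at 9593 bp. Mrpl10, related to the L10 protein of the bacterial ribosomal stalk, was 19497 bp from a summit (4.26) that lay 1577 bp from the long non-coding RNA Gm11532 and 2654 bp from Sp6. None of the 6 annotated pseudogenes with an Mrpl or Mrps symbol had a peak, which 6 genes are too few to set apart from the 11.4% of protein-coding genes. The closest, Mrpl23-ps1, was 12.4 kb from a summit.

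The other genes of mitochondrial translation gave a similar picture, apart from a higher share among the tRNA synthetases. Beside the 11.4% of all genes, 5 of 19 mitochondrial aminoacyl-tRNA synthetases, which charge tRNAs for the organelle, had a peak (26.3%, interval 9.15 to 51.2, which holds 11.4%). Within 1 kb of a listed start it was 5 of 16 (31.2%, interval 11 to 58.7), and the 9.18% of all genes lies below that interval. The same holds by the nearest end of any gene, with 5 of 19 (interval 9.15 to 51.2) against 8.38%. Under each other way of calling a peak, the interval holds the share of all genes. In the upper 25% of peaks by score it was 1 of 19 (5.26%, against 3.04%). No test was made, and this list and these ways of calling are picked among several. The 5 synthetase genes with a peak were Ears2 (scores 7.30 and 6.33), Nars2 (5.41), Rars2 (5.04), Mars2 (4.22) and Iars2 (2.02). Of these, the summits at Ears2, Rars2 and Iars2 lay beside an end of another gene, at nearly equal distance from both. For Ears2 the ends of Ears2 and Ubfd1 were 93 and 94 bp from 1 summit and 169 and 168 bp from the other. For Rars2 the own end was at 69 bp and that of Orc3 at 75 bp, and for Iars2 the own end was at 367 bp and that of Bpnt1 at 376 bp.

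In the list of assembly and ribosomal RNA factors, 3 of 29 genes had a peak (10.3%, interval 2.19 to 27.4). The lists were broad, and the roles of their genes were not tested here. This one held Mettl5 and Tmem223, and that of translation factors held Tefm. Dhx30, an RNA helicase needed for assembly of the mitochondrial ribosome, had a summit 421 bp downstream of its listed start with a score of 11.15, and an end of the non-coding gene Gm10615 was 9 bp from that summit. Mterf3, a factor of mitochondrial transcription and ribosome assembly, had a summit 48 bp outside its end (2.77). That summit was inside the overlapping gene Ptdss1, 301 bp from an end of Ptdss1. The summit counted for Tmem223 (6.53) was nearer to Tmem179b, at 202 bp, and to the pseudogene Gm2518, at 184 bp, than to its own end, at 2194 bp. Counted by the nearest end of a gene of any type, the list had 1 of 29, Mterf3 (3.45%, interval 0.0873 to 17.8). Of 17 translation factors, 1 had a peak (5.88%, interval 0.149 to 28.7): Mtres1, an RNA-binding factor, with a score of 10.50 at 93 bp downstream of a listed start. The 5 mitoribosome proteins with other symbols (Dap3, Ptcd3, Chchd1, Aurkaip1 and Gadd45gip1) had none (0 of 5, interval up to 52.2%). Cytosolic ribosomal proteins had 7 of 86 with a peak (8.14%, interval 3.34 to 16.1): Rps10 (8.34), Rpl35a (7.95, nearer to Lmln), Rpl19 (3.34), Rpl38 and Rps27l (2.51 each), Rps20 (2.27) and Rpl23a (2.15). The Rpl23a summit was 6 bp from an end of the microRNA gene Mir7653 and 2054 bp from its own gene. It was inside Tlcd1, 223 bp downstream of a listed start of Tlcd1. The Rps20 summit was 128 bp from an end of the non-coding RNA Gm32823 and 134 bp from its own end. The Rps10 summit was 50 bp from its own end and 50 bp from that of the long non-coding RNA Gm15420, and such a tie was counted. By the nearest end of a gene of any type, 4 of 86 remained (4.65%, interval 1.28 to 11.5), against 8.38% of all protein-coding genes. The share of members with a peak was close to that of the cytosolic family and below that of all genes, and the members' interval holds both.

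**Figure D4:**
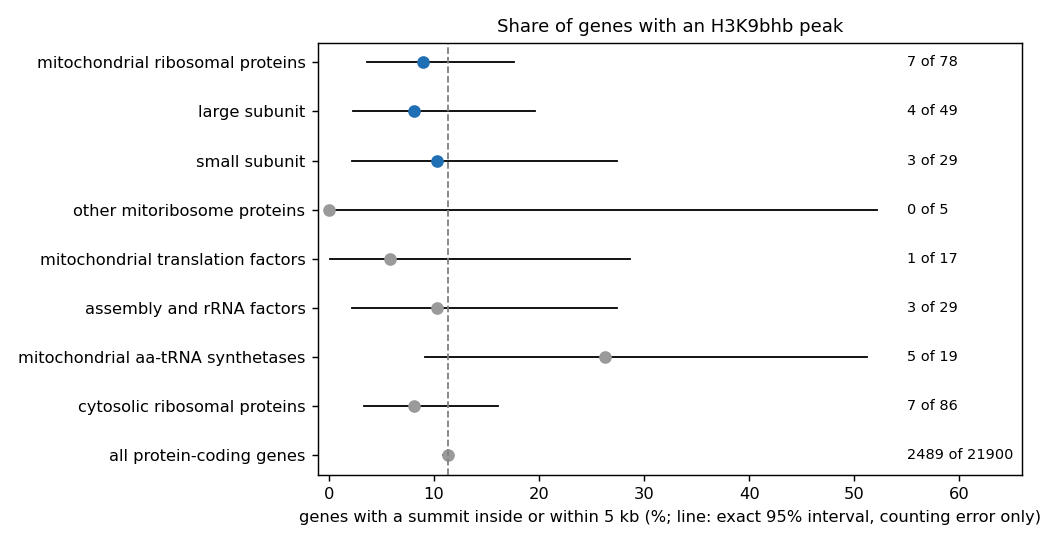
Percent of genes with a summit inside or within 5 kb for the members, their subunits, the other lists and all protein-coding genes, with exact 95% intervals as lines and counts at the right. The dashed line is the 11.4% of all protein-coding genes, which lies inside the interval of every list.

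Features of the members other than their names were then compared with those of all genes, by divisions chosen after the members' values were seen. Members are short genes: their median length was 7.69 kb (quartiles 4.00 and 12.5 kb), against 17.1 kb for all protein-coding genes. The 7 with a peak had a median of 9.54 kb (8.28 to 53.9 kb) and the 71 without one a median of 7.14 kb (0.825 to 122 kb). Cytosolic ribosomal protein genes were shorter still, with a median of 3.15 kb. Among genes with a length between the quartiles of the members, 4 of 38 members had a peak (10.5%, interval 2.94 to 24.8), against 435 of 4952 protein-coding genes (8.78%).

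Start windows of members were rich in CpG, a feature that the genes with a peak in the whole list also had. The median was 21 CpG per window of 300 bases in members and 13 in all protein-coding genes. For cytosolic ribosomal protein genes the median was 20.5, close to that of members. Over all protein-coding genes it was 25 in those with a peak and 11 in those without. Within the family the order was not the same: the 5 members with a peak and a listed start had a median of 18 (10 to 39), and the 64 without a peak had one of 21.5 (7 to 39). Among genes with 21 or more CpG, 2 of 37 members had a peak, Mrps6 and Mrps33 (5.41%, interval 0.661 to 18.2), against 1315 of 5887 protein-coding genes (22.3%). Below 21 CpG it was 3 of 32 members (9.38%, interval 1.98 to 25), against 717 of 11605 genes (6.18%). The 22.3% of all genes with CpG-rich starts lies above the members' interval. No test was made of this, and it rests on 1 library and on a division picked among several.

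Members were also crowded by neighbours. Of the 78, 47 had another protein-coding gene within 1 kb or overlapping, and 1 of these, Mrps6, had a peak (2.13%, interval 0.0539 to 11.3), against 990 of 6936 protein-coding genes placed in this way (14.3%). Of the 31 members without such a neighbour, 6 had a peak (19.4%, interval 7.45 to 37.5), against 1499 of 14964 genes (10.0%). A divergent start of another protein-coding gene within 1 kb upstream was listed for 24 members, and 0 of the 24 had a peak (interval up to 14.2%; up to 12.5% by 3 counts of the total), against 262 of 1483 protein-coding genes with a divergent start (17.7%). With a listed start but no divergent partner, 5 of 45 members had a peak (11.1%, interval 3.71 to 24.1), against 1770 of 16009 genes (11.1%). In all 3 divisions, over both subunits joined, the class that had more peaks genome-wide had fewer among the members. For CpG this order came from the large subunit, with 0 of 21 genes at 21 or more CpG and 3 of 22 below. The small subunit had 2 of 16 (12.5%) at 21 or more and 0 of 10 below, the order seen in all genes. Mrpl22, whose summit was nearer to Gemin5, is counted among the members with fewer CpG, without a close neighbour and without a divergent start. By summits within 1 kb of a listed start, 2 of 37 members with 21 or more CpG (5.41%) stood beside 2 of 32 below (6.25%). For all genes these shares were 19.8% and 3.77%. The other divisions kept their order, with 0 of 24 and 4 of 45 by divergent start and 1 of 42 and 3 of 27 by close neighbour. The classes overlap in their genes, so they are not independent of each other.

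**Figure D5:**
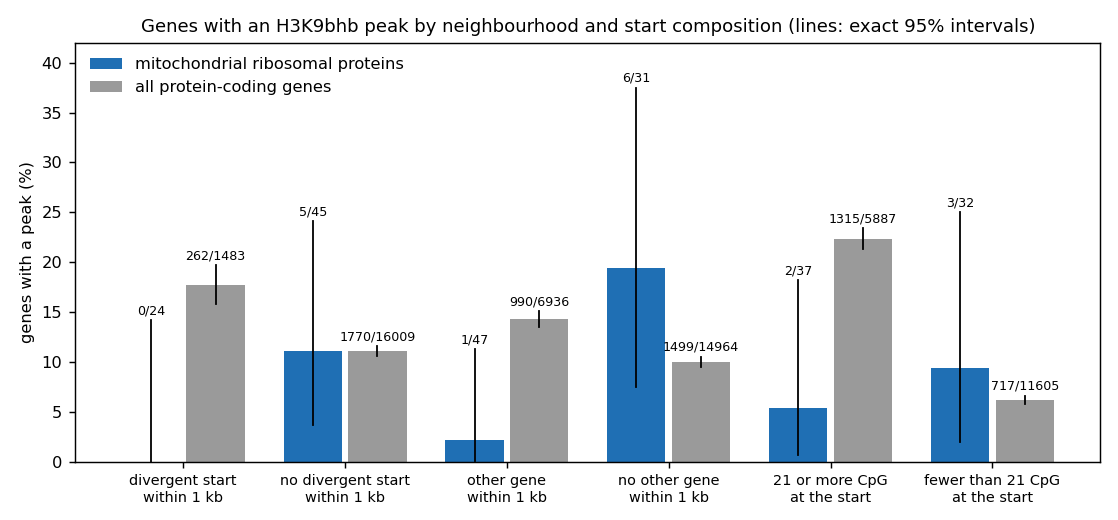
Percent of genes with a peak among members (blue) and all protein-coding genes (grey), divided by a divergent start within 1 kb, by another gene within 1 kb and by 21 or more CpG in the start window; lines are exact 95% intervals and the counts stand above them. Members have 0 of 24 with a divergent start, 1 of 47 with a close neighbour and 2 of 37 with a CpG-rich start.

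Several members without a peak share a start region with another gene of the organelle. Mrpl46 and Mrps11, of different subunits, start 42 bp apart in opposite directions on chromosome 7, and their nearest summits were 809 and 799 kb away. Mrps12, whose product is related to the decoding-site protein S12, starts 147 bp from Sars2, a mitochondrial seryl-tRNA synthetase gene, and was 497 kb from a summit. Mrpl43 starts 116 bp from Twnk, the helicase of mitochondrial DNA (285 kb from a summit). Mrpl47 starts 308 bp from Ndufb5, a complex I subunit gene (217 kb).

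CCGGAAG, the NRF1 motif and AAGATGGCG, known from promoters of housekeeping and mitochondrial genes, were in over 2 times the share of member start windows as of all windows. Of these 3, CCGGAAG alone was in a member with a peak. CCGGAAG was in 26 of 75 member start windows (34.7%), against 11.6% of 21263 windows of protein-coding genes. It was in 3 of 5 windows of members with a peak (Mrpl22, Mrpl33 and Mrps33) and in 23 of 70 without (32.9%). The summit counted for Mrpl22 was 3273 bp upstream of its listed start and nearer to Gemin5, whose printed window holds no CCGGAAG. The NRF1 motif was in 13 of 75 (17.3%), against 6.38% of all windows, and none of the 13 belonged to a member with a peak. Its form with T at the free position was in 3 (4.0%), against 1.33%. AAGATGGCG was in 8 of 75 (10.7%), against 1.83%, also none with a peak. CCGGAAG, the NRF1 motif and AAGATGGCG all contain CG. Members had a median of 21 CpG per window, against 13 in all protein-coding genes, and windows of like CpG content were not compared. GGGCGG was in 39 of 75 (52.0%, against 46.2%), CCAAT in 30 (40.0%, against 38.2%), CACGTG in 7 (9.33%, against 7.84%), TGACGTCA in 2 (2.67%, against 2.23%) and TATAAA in 5 (6.67%, against 12.6%). The 75 windows come from 69 genes, and some of them overlap. The windows with CACGTG were those of Mrpl2, Mrpl20, Mrpl36, Mrpl37 and Mrps18c, with Mrpl2 counted more than once through neighbouring starts. By subunit, CCGGAAG was in 15 of 48 large-subunit windows (31.2%) and 11 of 27 small-subunit windows (40.7%), and the NRF1 motif in 10 (20.8%) and 3 (11.1%). A match to such letters is not evidence of binding, and with 5 windows of members with a peak the shares with and without one cannot be compared closely.

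The windows of Mrpl57 (chr14:57825989-57826288, plus strand) and Mrps18a (chr17:46110754-46111053, plus strand), members without a peak chosen after their motifs were seen, are printed with the same capitals to set beside those with a peak. Mrpl57 holds the NRF1 motif 57 to 48 bp upstream of the start and CCGGAAG 4 to 10 bp downstream, and was 170 kb from the nearest summit. Mrps18a holds CCGGAAG 26 to 20 bp upstream and AAGATGGCG 11 to 19 bp downstream, and was 80.4 kb from the nearest summit.
Mrpl57: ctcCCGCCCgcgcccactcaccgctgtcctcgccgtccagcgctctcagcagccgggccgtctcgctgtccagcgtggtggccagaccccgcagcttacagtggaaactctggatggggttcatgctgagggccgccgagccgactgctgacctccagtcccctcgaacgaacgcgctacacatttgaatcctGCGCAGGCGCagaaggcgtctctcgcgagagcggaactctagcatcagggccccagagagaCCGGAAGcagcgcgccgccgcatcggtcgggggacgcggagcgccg
Mrps18a: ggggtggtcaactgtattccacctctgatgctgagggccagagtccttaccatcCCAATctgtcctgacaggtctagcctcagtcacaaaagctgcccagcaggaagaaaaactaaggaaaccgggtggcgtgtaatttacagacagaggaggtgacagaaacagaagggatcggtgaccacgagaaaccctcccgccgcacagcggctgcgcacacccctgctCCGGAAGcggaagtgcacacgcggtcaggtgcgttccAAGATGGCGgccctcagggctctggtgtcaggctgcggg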

How the data were processed

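The values used were the deposited peak list of the 1 ChIP library (−log10 p or q values written by the authors' peak caller; no source says which). The submitters' processing notes name MACS2 2.1.2, Bowtie2 2.3.5, Trimmomatic 0.39 and FastQC 0.11.8, and build mm10, without a role or order. Settings, use of the input, and handling of duplicates and repeats: not given in the sources used here. Reads mapping to similar sequences, such as pseudogenes, could therefore raise or lower single peaks. Per the labels, each library had 70 M paired reads of 150 bp; depth per peak is unknown. Each row is a position of 1 bp, and the last base of the row is the 1-based summit. All 2315 summits were used. Gene spans came from RefSeq (GRCm38.p6; 21900 protein-coding genes), and starts, strands and sequences from a RefSeq table covering 17492 of them. The first listed window of a gene was used for CpG counts, and all windows for motifs. Named genes were all members with a peak, members within 20 kb of a summit, any gene with a nearer end (of protein-coding or other type), and other list members with a peak. Of the list names, Mtrfr and Trmt61b had no match. S6 kinase genes and Rps19bp1 were left out of the cytosolic family after the symbol rule was applied; with them it was 9 of 97 genes (9.28%). The members and lists were chosen with earlier results of these data known. Intervals are exact binomial (Clopper-Pearson, 95%). The counting functions were tested on simulated data: all 200 seeded genes were found, as the seeding placed them inside the windows. Software was matplotlib 3.10.9, scipy 1.17.1, pandas 2.3.3, numpy 2.4.6 and Python 3.11.15.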

Additional observations from a re-analysis of the deposited data

How the results depend on the processing

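The count of 7 members moved by less than 1.5 times in 8 of 10 alternatives: 8 within 10 kb, 6 within 1 kb, and 6 when each summit went to the nearest protein-coding end or the nearest end of any gene. It fell to 4 of 69 with listed starts and to 2 (2.56%, both large-subunit genes, Mrpl22 and Mrpl23) in the upper 25% of peaks, where 665 genes (3.04%) had a peak. By subunit, these 2 alternatives gave 2 large-subunit genes each, and the upper 25% gave 0 small-subunit genes. The other translation lists joined had 9 of 70 genes with a peak within 5 kb (12.9%, against 11.4% of all genes). In the upper 25% of peaks they had 3 of 70 (4.29%, against 3.04%). Over all genes the count was 1263 (5.77%) in the upper 50% of peaks and 1606 (9.18%) with listed starts; stricter thresholds use fewer peaks, and starts were listed for fewer genes. The large subunit had a lower share than the small subunit within 5 kb (8.16% and 10.3%) and a higher one in the upper 25% of peaks (4.08% and 0%). The higher share rests on Mrpl23 and on Mrpl22, whose summit was nearer to Gemin5. No paired analysis was possible because there is 1 ChIP library and its input has no peak list here.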
